A study of Mus musculus with 83 samples.

Results

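The B8 count table of Pol II CUT&Tag held 55367 gene rows, and that of C64 held 27752 rows. The 27615 rows of the B8 table that this C64 table lacks are described here. A further count table, of B8 and C64 control libraries, also holds these rows. Each was chosen because its gene name is absent from the C64 table. All 27615 names begin with the letters Gm, and 0 rows of the C64 table have such a name, so the rows were set apart by a name prefix and not by a gene type. Of these names, 27598 are Gm followed by digits, the form given to predicted mouse genes, and 17 are ordinary symbols such as Gmnn (geminin, an inhibitor of replication licensing) and Gmps (GMP synthase). The C64 table still held 1896 rows typed as pseudogenes.

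The study asked whether Pol II needs the TATA-binding protein (TBP) or its paralog TRF2 in mouse embryonic stem cells. C64 cells are JM8.N4 cells (with GFP on histone H3.3, as in B8) with a minimal auxin-inducible degron (mAID) on both copies of TBP, and indole-3-acetic acid (IAA) triggers degradation of the tagged protein. B8 is a clone of C64 in which Tbpl1, the gene of TRF2, was also knocked out, so TRF2 is missing from B8 control and B8 +IAA cells alike. The libraries used are 4 of B8 control cells (DMSO), 4 of B8 cells with 500 µM IAA for 6 hr, and 2 of C64 control cells. Within each B8 group, 2 libraries came from run 6 and 2 from run 8, while both C64 libraries came from run 2. The Pol II control libraries of C64 and B8 used here thus come from different CUT&Tag runs, and for them line and run cannot be told apart. The study names the Pol II libraries biological replicates, without stating whether each is a separate culture, and p-values measure the spread between these libraries. Since cells were measured in bulk, fewer cells with Pol II at a gene and less Pol II per cell cannot be told apart.

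Most Gm genes were predicted from cDNA or genomic sequence and have no assigned function. They include long non-coding RNAs (lncRNAs), which Pol II transcribes and often caps and splices, processed pseudogenes, which are copies of mRNAs inserted by reverse transcription, and annotated copies of pericentromeric satellite repeats. In CUT&Tag an antibody against Pol II tethers a transposase that cuts nearby DNA, so the counts report where Pol II or accessible DNA lay and not RNA levels.

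Sequences are shown for the rows on which the results turn, all from GRCm38.p6. The first is 1 unit of the tandem repeat of Gm10800 (chr2:98666549-98666782, plus strand), with the 45 letters shared by all 12 satellite rows in capitals. It is shown because Gm10800 had the highest mean CPM of the Gm rows over the B8 libraries, where CPM is the count scaled by library size. That rank rests on 1 library, with 15837 CPM in control run 6 replicate 2 and 627 to 2708 in the other B8 libraries. Without that library the Y-linked Gm47283 had a higher mean.
Gm10800 repeat unit: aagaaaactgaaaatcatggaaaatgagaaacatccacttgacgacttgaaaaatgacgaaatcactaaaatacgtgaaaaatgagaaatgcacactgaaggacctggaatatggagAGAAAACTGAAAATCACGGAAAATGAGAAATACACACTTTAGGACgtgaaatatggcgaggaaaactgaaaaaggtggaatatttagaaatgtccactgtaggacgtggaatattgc
The next is a stretch of the pseudogene Gm28439 (chr1:24611535-24611614, plus strand) beside the minus strand of the mitochondrial genome (positions 10963 to 11042), in lower case throughout because the 80 bases have 0 differences.
Gm28439 stretch: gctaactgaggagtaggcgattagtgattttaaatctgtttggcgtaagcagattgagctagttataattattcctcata
mitochondrial stretch: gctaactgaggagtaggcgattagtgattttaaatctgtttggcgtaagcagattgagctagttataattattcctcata
The last are RefSeq promoters, from 250 bases before to 50 after the start, of a lncRNA that rose with IAA (Gm41442, chr16:31233169-31233468, plus strand), of one that fell (Gm41031, chr13:97826006-97826305, minus strand) and of one that fell and holds the motif TATAAA on the opposite strand (Gm26901, chr1:7398047-7398346, minus strand, motif in capitals as TTTATA).
Gm41442 promoter: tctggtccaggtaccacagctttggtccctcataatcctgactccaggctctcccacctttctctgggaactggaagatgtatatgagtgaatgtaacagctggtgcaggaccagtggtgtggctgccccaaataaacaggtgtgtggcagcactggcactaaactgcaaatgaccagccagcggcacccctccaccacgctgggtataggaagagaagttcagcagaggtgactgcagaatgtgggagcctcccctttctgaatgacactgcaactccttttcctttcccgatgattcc
Gm41031 promoter: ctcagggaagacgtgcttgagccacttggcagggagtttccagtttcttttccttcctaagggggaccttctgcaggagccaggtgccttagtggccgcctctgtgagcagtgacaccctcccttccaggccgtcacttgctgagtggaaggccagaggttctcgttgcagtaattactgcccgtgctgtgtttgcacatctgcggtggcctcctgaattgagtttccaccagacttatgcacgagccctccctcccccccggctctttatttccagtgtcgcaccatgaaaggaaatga
Gm26901 promoter: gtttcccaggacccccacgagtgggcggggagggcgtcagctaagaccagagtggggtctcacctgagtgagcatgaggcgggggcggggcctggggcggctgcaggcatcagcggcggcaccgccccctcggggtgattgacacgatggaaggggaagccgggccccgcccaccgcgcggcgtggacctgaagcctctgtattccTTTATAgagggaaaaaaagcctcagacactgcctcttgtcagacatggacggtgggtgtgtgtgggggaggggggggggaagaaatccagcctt

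The sum of counts per library lay between 1021508 and 1232795 for B8 run 6 and between 2464944 and 2638315 for run 8, and was 5325523 and 5178125 for C64. Control run 6 replicate 2 stood apart, with 11.8% of its reads in Gm rows against 4.34 to 6.42% in the other B8 libraries and 5.56 and 5.84% in C64. Tbpl1 had 0 to 10 reads per B8 library and 75 and 29 in C64. Of 7 stem cell markers, Sox2 was at 0 in every library because it lies wholly within Sox2ot, and their summed level was 561 to 1247 CPM per library. Most of that sum was Esrrb, a pluripotency factor gene, which fell with IAA (500 to 1169 CPM over the B8 libraries, log2 -0.51, adjusted p = 0.0196 by edgeR's quasi-likelihood test with Benjamini-Hochberg adjustment). It was the only marker of this list that was called. Zfp42 (26.2 to 49.4 CPM, log2 -0.31, adjusted p = 0.325, edgeR) and Klf4 (log2 0.45, adjusted p = 0.424, edgeR) did not pass. Pou5f1, Nanog and Dppa5a had too few reads to be tested. The 4 fibroblast markers summed to 20.0 to 38.2 CPM and the 2 primitive endoderm markers to 34.0 to 67.6 CPM.

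Gm rows were short and few passed the filter on low counts. Their median length was 942 bases against 12029 in the C64 table, and 13876 of the 27615 had no read in any B8 library. Of the 18238 rows with a base that no other row covers, 75.3% had a read. By GENCODE M21, 10875 were pseudogenes, 6792 lncRNAs, 4485 small RNAs, 1414 protein-coding and 2750 TEC entries, a class that still awaits experimental evidence, while 17 had other types and 1282 had no match. Only 1012 (3.66%) passed that filter (filterByExpr with a minimum count of 20) against 12663 (45.6%) of the rows in the C64 table. Counts of lncRNA rows therefore dominate what could be tested (652 of 1012), and 2 of the 4485 small RNA rows were tested. Because pairs were counted without strand and dropped where genes overlap, the 43.3% of Gm rows that overlap another row should hold only reads of their own bases. In all, 9377 rows have no such base, yet 13 of them held a read in a B8 library.

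The 10 Gm rows with the most reads held 11.1 to 35.4% of all Gm reads in a library. Counted per kilobase of own sequence and over all 8 B8 libraries, Gm10800 had the highest mean level over the B8 libraries (4490 CPM per kb) and the satellite row Gm10801 followed with 1313. The mitochondrial copies Gm28661, Gm28439 and Gm28437 had 793, 721 and 636 CPM per kb, and the Y-linked Gm47283 had 65.9. Without control run 6 replicate 2 these levels were 2134 and 772 for Gm10800 and Gm10801, 393, 311 and 314 for Gm28661, Gm28439 and Gm28437, and 65.8 for Gm47283.

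Pol II occupancy of Gm rows changed in both directions after 6 hr of IAA. With edgeR's quasi-likelihood test, run as a block and a Benjamini-Hochberg threshold of 0.05, 42 of the 1012 tested Gm rows (4.15%) differed, 17 lower and 25 higher, while 5.68% of all 13675 tested rows did (3.29% lower and 2.39% higher). Thus 1.68% of Gm rows fell and 2.47% rose. The share called among Gm rows did not exceed the share among all rows. Changes of single rows are given as log2 fold changes ± standard error, IAA minus control. Their median was -0.02 for tested Gm rows and for all tested rows. In all 42 rows the IAA and control libraries did not overlap in CPM within either run, and in 21 they did not overlap over the 8 libraries. Of all 13675 tested rows, 19% were separated in the same direction within both runs and 7.55% over the 8 libraries, and of all called rows 95.8% and 50.8% were. Of the 42, 29 were lncRNAs, as were 652 of the 1012 tested Gm rows. The counts carry no strand for any row, and 24 of the 42 overlapped another row. A row of the C64 table was overlapped by 12 of the 25 that rose and 8 of the 17 that fell, against 436 of the 1012 tested. Without a term for run, 3 of the 1012 Gm rows were called. Without control run 6 replicate 2 there were 120 of 1455 (8.25%, against 14% of all rows), among them all 42. For the other alternatives of this paragraph the share of all rows is not given, and leaving out a library changes how many rows are tested. With each same-numbered pair of a run as a block, 28 were called, and Gm15533 (adjusted p = 0.0657), Gm29560 (0.0673), Gm25939 (0.0718), Gm26901 (0.0834), Gm13212 (0.0725) and Gm13147 (0.0854, all edgeR) were among those that did not pass. Leaving out any other library left 14 to 32 calls, and 12 rows were called in every one of the 8 leave-outs: Gm41556, Gm50333, Gm8251, Gm41442, Gm39185 and Gm27184, which rose, and Gm47283, Gm28037, Gm41031, Gm49804, Gm16853 and Gm12868, which fell.

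**Figure D1:**
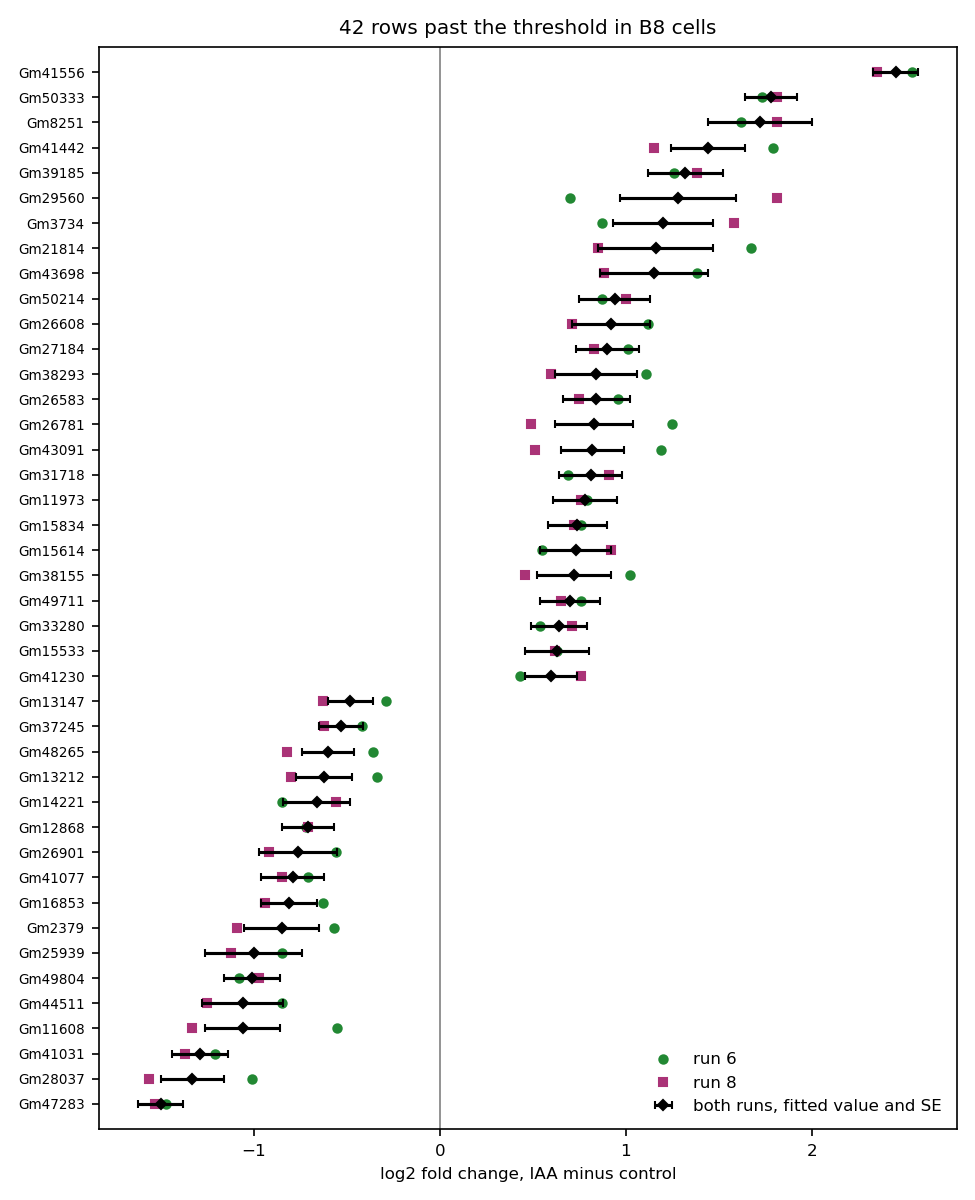
Log2 fold change (IAA minus control in B8) for the 42 Gm rows past the threshold, with diamonds and bars for the fit over both runs and its standard error, circles for run 6 and squares for run 8. The values run from -1.50 (Gm47283) to 2.45 (Gm41556).

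The largest rise was at Gm41556, a lncRNA at chr17:29053336-29060167 on the plus strand. Its control libraries held 65.5 and 59.8 CPM in run 6 and 29.6 and 31.2 in run 8, and its IAA libraries 360 and 361 in run 6 and 146 and 170 in run 8. Every IAA library was above every control, with a 5.46-fold rise (log2 2.45 ± 0.12, adjusted p = 1.43e-07 by edgeR's quasi-likelihood test with Benjamini-Hochberg adjustment). Gm41556 overlaps Trp53cor1 (lincRNA-p21, a target of p53) on the opposite strand over 2738 bases, leaving 4094 bases of its own. Trp53cor1 rose as well, from 67.9, 53.3, 43.5 and 42.9 CPM to 382, 399, 116 and 122 (log2 2.05 ± 0.20, adjusted p = 0.000103, same test). Cdkn1a, which encodes the CDK inhibitor p21 and lies beyond Trp53cor1, fell (log2 -0.99 ± 0.16, adjusted p = 0.00304, edgeR). Srsf3, a splicing factor gene on the other side, rose by 0.71 (adjusted p = 0.0213, edgeR). The nearby Gm16196 had a log2 difference of 0.34 that did not pass (adjusted p = 0.192, edgeR).

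Gm50333, a row without a GENCODE M21 match at chr17:34099929-34109823 (plus strand), rose 3.43-fold. It held 289 and 174 CPM (run 6) and 174 and 165 (run 8) in control and 773, 755, 584 and 627 with IAA, again without overlap. Its log2 fold change was 1.78 ± 0.14 (adjusted p = 1.62e-05, edgeR). Brd2, which encodes a BET bromodomain protein, lies 2200 bases away on the opposite strand and rose from 191, 135, 171 and 160 CPM to 353, 345, 364 and 367 (log2 1.12 ± 0.12, adjusted p = 0.000166, edgeR). H2-DMa, a class II antigen-processing gene, and Col11a2, a collagen gene, also rose at this locus (log2 0.70 and 0.59, adjusted p = 0.0183 and 0.0447, edgeR), and Rxrb, a retinoid X receptor, had a log2 difference of 0.11 (adjusted p = 0.848, edgeR).

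Gm41442, the lncRNA whose promoter is printed above (chr16:31233590-31248313), held 22.1, 18.5, 16.1 and 16.9 CPM in control and 70.7, 68.6, 29.6 and 44.8 with IAA. The groups did not overlap, and the log2 fold change was 1.44 ± 0.20 (adjusted p = 0.00109, edgeR). Its neighbour Ppp1r2, an inhibitor of protein phosphatase 1, lies 3224 bases away and had a log2 difference of 0.22 (adjusted p = 0.475, edgeR). Gm8251, typed as protein-coding, had 5.22 to 15.2 CPM in control and 19.9 to 36.8 with IAA (log2 1.72 ± 0.28, adjusted p = 0.00344, edgeR). The lncRNA Gm39185 rose by 1.32 ± 0.20, and its neighbour Naf1, a snoRNP assembly factor gene, had a log2 difference of 0.03. Gm27184, antisense to Tmem185b, had 20.5 to 26 CPM in control and 41.0 to 47.4 with IAA (log2 0.90 ± 0.17, adjusted p = 0.0072, edgeR).

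Further rows rose by 0.60 to 1.28, and each of them lost its call in at least 1 leave-out. Gm15533, antisense to Trim72 (a membrane repair gene), rose by 0.63 ± 0.17 (adjusted p = 0.0443, edgeR). Trim72 itself rose by 1.33 ± 0.13 (adjusted p = 0.000103, edgeR), from 34.4 to 82.6 CPM in control to 79.9 to 196 with IAA. Gm29560, a TEC entry, rose by 1.28 ± 0.31, and the neighbouring monocarboxylate transporter gene Slc16a1 had a difference of -0.02.

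The largest fall was at Gm47283 (chrY:90784738-90816465, plus strand), typed as protein-coding, which lies in the pseudoautosomal region that X and Y share. It held 2565 and 2109 CPM in control run 6 and 4013 and 3672 in control run 8. With IAA it held 858 and 802 in run 6 and 1372 and 1339 in run 8, below every control library (log2 -1.50 ± 0.12, adjusted p = 1.62e-05, edgeR). Of this row, 12912 bases (40.7%) are 96.3% identical to chrX:170009822-170022643, where Erdr1, a pseudoautosomal gene, is annotated, so reads may be placed on either copy. Erdr1 fell by 1.29 ± 0.12 on the log2 scale (adjusted p = 5.34e-05, edgeR), from 986 to 2116 CPM in control to 450 to 778 with IAA. Mid1, the ubiquitin ligase gene that spans the pseudoautosomal boundary, and the Y copy Mid1-ps1 fell by 1.12 and 1.46.

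Gm28037 overlaps 3 rows: Zbtb11, a zinc finger gene on the same strand, Rpl24 on the same strand, and Zbtb11os1 on the opposite strand. Rpl24 (mean 2.4 CPM) and Zbtb11os1 (0.0 CPM) were not tested. Gm28037 has 1832 bases of its own, which lie between Rpl24 and Zbtb11os1. It held 53.2, 47.8, 77.1 and 84.0 CPM in control and 21.6, 27.8, 24.1 and 31.5 with IAA, without overlap (log2 -1.33 ± 0.17, adjusted p = 0.000599, edgeR). Zbtb11 fell by 0.62 (adjusted p = 0.0186, edgeR). Gm41031, the lncRNA whose promoter is printed above, fell from 117 and 101 to 39.9 and 53.1 CPM in run 6 and from 57.0 and 44.6 to 20.3 and 19.5 in run 8. These values separate within each run but overlap between runs (log2 -1.29 ± 0.15, adjusted p = 0.000382, edgeR).

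**Figure D2:**
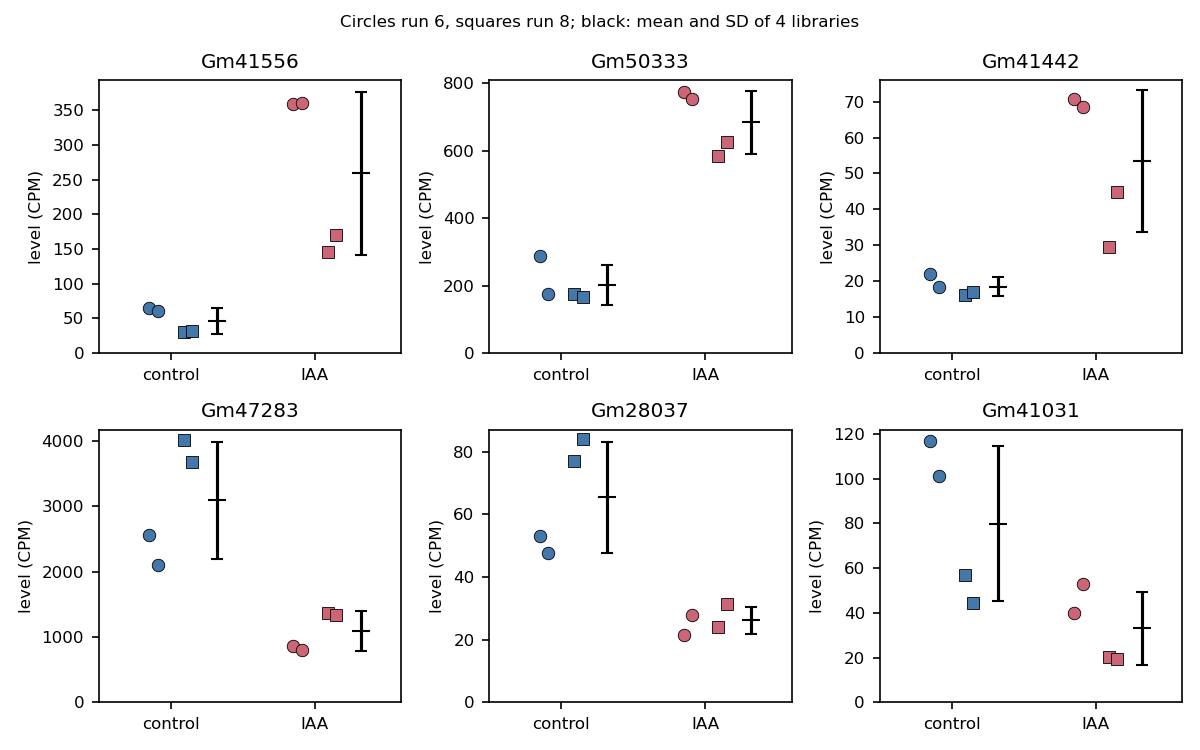
Normalised read counts (CPM) in each B8 library for 3 Gm rows that rose and 3 that fell with IAA, with circles for run 6, squares for run 8, and black marks for the mean and SD of 4 libraries. In run 6 Gm41556 had 65.5 and 59.8 CPM in control and 360 and 361 with IAA.

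Gm2379, on the same chromosome as Gm41031, fell by 0.85 ± 0.20 (adjusted p = 0.0251, edgeR), a call that held in 2 of the 8 leave-outs. It lies 14197 bases from Lncenc1, a lncRNA of embryonic stem cells, which fell by 1.44 ± 0.15 (adjusted p = 0.000119, edgeR) from 219 to 440 CPM in control to 94.8 to 155 with IAA. Gm11608, 145 bases from the imprinted gene Zdbf2 on the opposite strand, fell by 1.06 ± 0.20 and Zdbf2 by 0.67. Gm41077 is antisense to Zfp131, a zinc finger gene, and the pair fell by 0.79 and 0.95.

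Gm49804, which overlaps Nudt3 (a phosphohydrolase gene), fell by 1.01 ± 0.15 (adjusted p = 0.0018, edgeR). Gm12868, antisense to the glucose transporter gene Slc2a1 with 818 bases of its own, fell by 0.71 ± 0.14, and Slc2a1 had a difference of -0.39 (adjusted p = 0.101, edgeR). Gm25939, an annotated snRNA of 191 bases, was the only small RNA called (2.0-fold lower, adjusted p = 0.0368, edgeR), in 1 of the 4 leave-outs in which it was tested. Its control libraries had 15.2 to 22.1 CPM and its IAA libraries 8.17 to 12.5, and the neighbouring Pecr, a peroxisomal reductase gene, rose by 0.65.

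Gm13212 and Gm13147, rows near zinc finger genes of chromosome 4, fell by 0.62 ± 0.15 and 0.48 ± 0.12. They are 92.8% identical to each other over 23243 and 23247 bases (57.8% of Gm13212 and more of Gm13147), so they may share reads and are not independent. Zfp980, next to Gm13212, fell by 0.65, whereas Zfp988, next to Gm13147, had a difference of -0.38 (adjusted p = 0.143, edgeR).

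Among the 17 Gm rows that fell, 12 had a tested nearest gene from the C64 table, of which 7 fell and 1 rose. Among the 25 that rose, 19 had one, of which 3 rose and 0 fell. Over all 1012 tested Gm rows with 605 tested neighbours, 4.13% of the neighbours rose and 5.62% fell. Overlapping rows share a locus, so these pairs are not independent measurements.

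**Figure D3:**
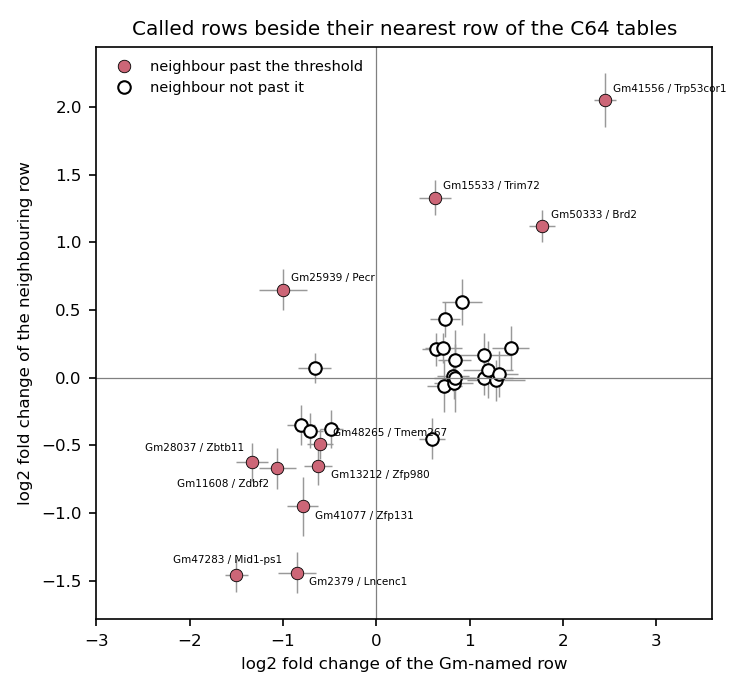
Log2 fold change (IAA minus control) of each called Gm row against that of its nearest or overlapping gene in the C64 table, for pairs in which both were tested, with bars of 1 standard error and filled points where the neighbour passed the threshold. Gm41556 and Trp53cor1 stand at the upper right with 2.45 and 2.05.

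Of the 12 satellite rows, 0 were called by edgeR's quasi-likelihood test. Their log2 fold changes were -0.64 to -0.42 with standard errors of 0.55 to 0.69 (lowest adjusted p = 0.606, edgeR). In 10 of 12, the sequence repeats with a period of 234 bases, the unit length of mouse major satellite, at 65.0 to 91.6% identity. Gm21738 had its best match at 351 bases, with 60.3% identity. Gm10801 showed no clear period, with 37.3% identity at best against 37.7% in Gm10222, a row outside the satellite list. In Gm10800 the control libraries held 2675 and 15837 CPM in run 6 and 627 and 729 in run 8, and the IAA libraries 2708, 1675, 2217 and 649. The value of control run 6 replicate 2 was the highest in all 12 rows. The direction differed between runs, at -2.03 to -1.64 in run 6 and 0.79 to 1.14 in run 8, and the lowest adjusted p for a difference between runs was 0.337 (edgeR). Without control run 6 replicate 2 the 12 differences were 0.48 to 0.65, opposite in sign to those from all libraries, and 2 of them passed. In that fit 14% of all tested rows were called. With run 8 fitted alone all 12 were called higher after IAA (0.80 to 1.15, edgeR's quasi-likelihood test), whereas in run 6 alone 0 were called. In run 8 alone, 18% of all tested rows were called and 6.26% were higher. In Gm10800, however, IAA run 8 replicate 2 (649 CPM) lay between the controls of that run (627 and 729).

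The 7 rows of a block on chromosome 1 were chosen after their values were seen. They (Gm28439, Gm10222, Gm28438, Gm28437, Gm10925, Gm28661 and Gm29216) are unprocessed pseudogenes that are at least 99.7% identical to the mitochondrial genome. The 37 rows of the mitochondrial genome itself held 0 reads in every library. With such identity, reads in the block may come from either copy, and these 0 counts do not tell the copies apart. The origin of the reads was not tested. Gm28439 had 117, 3127, 344 and 262 CPM in control and 273, 216, 326 and 362 with IAA, so 1 control library was far above the rest. The 7 log2 differences were -1.26 to -0.91 over both runs, -2.67 to -2.35 in run 6 and 0.16 to 0.45 in run 8, and none passed (lowest adjusted p = 0.386, edgeR). Without control run 6 replicate 2 they were 0.42 to 0.63 and all 7 were called higher, and with run 8 alone 5 of 7 were. In these fits 14% and 18% of all tested rows were called, and in run 8 alone 6.26% were higher. The 7 rows lie side by side at 1 locus and moved together, so they are not independent.

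**Figure D4:**
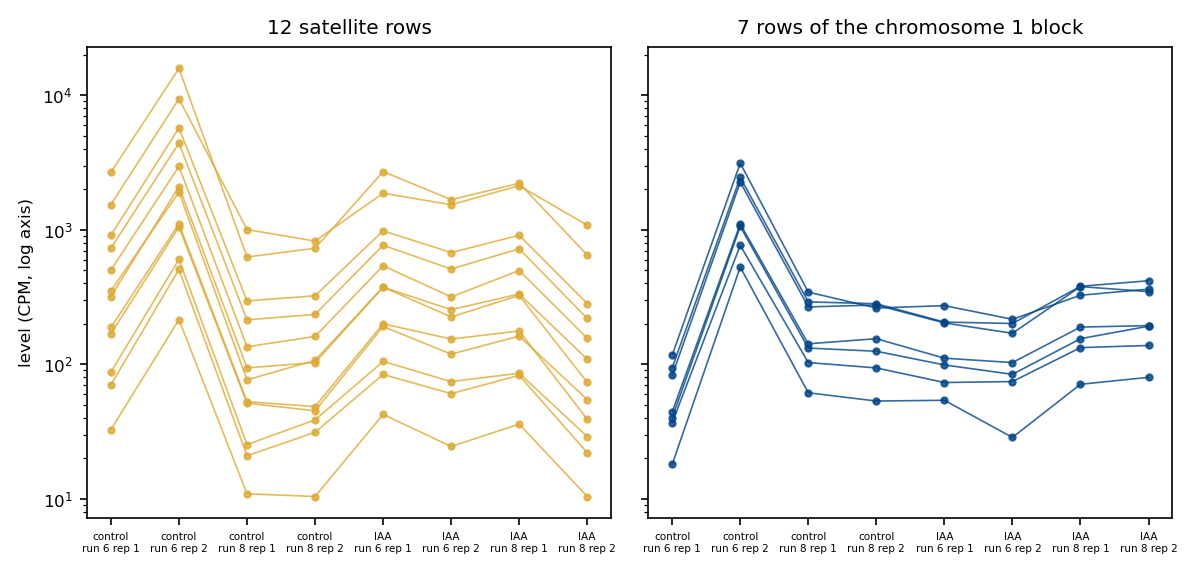
Normalised read counts (CPM, log axis) of the 12 satellite rows (left) and the 7 mitochondrial copies of the chromosome 1 block (right) in each B8 library, with 1 line per row. Control run 6 replicate 2 is the highest B8 library in every row shown.

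The share of reads in all Gm rows was 6.12, 11.8, 4.34 and 4.42% in B8 control and 6.42, 6.03, 5.44 and 4.78% with IAA. The means were 6.68 ± 3.53% and 5.67 ± 0.716% (SD, n = 4 each), a difference of -1.01 points (two-sided exact permutation test, p = 0.857, the smallest possible being 0.0286). With labels exchanged only within runs, an alternative added after the data were seen, the exact permutation p was 0.944 (smallest possible 0.0556). The difference was -2.75 points in run 6 and 0.731 points in run 8, where both IAA libraries were above both controls. Without control run 6 replicate 2 the difference was 0.706 points (exact permutation p = 0.314). Satellite rows took 4.13% of that library and 0.227 to 0.83% of the other B8 libraries, and the chromosome 1 block took 1.02% of it and 0.0429 to 0.166% of the others. The remaining Gm rows held 5.02 ± 1.27% in control and 4.94 ± 0.574% with IAA (exact permutation p = 1.0, n = 4 each).

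**Figure D5:**
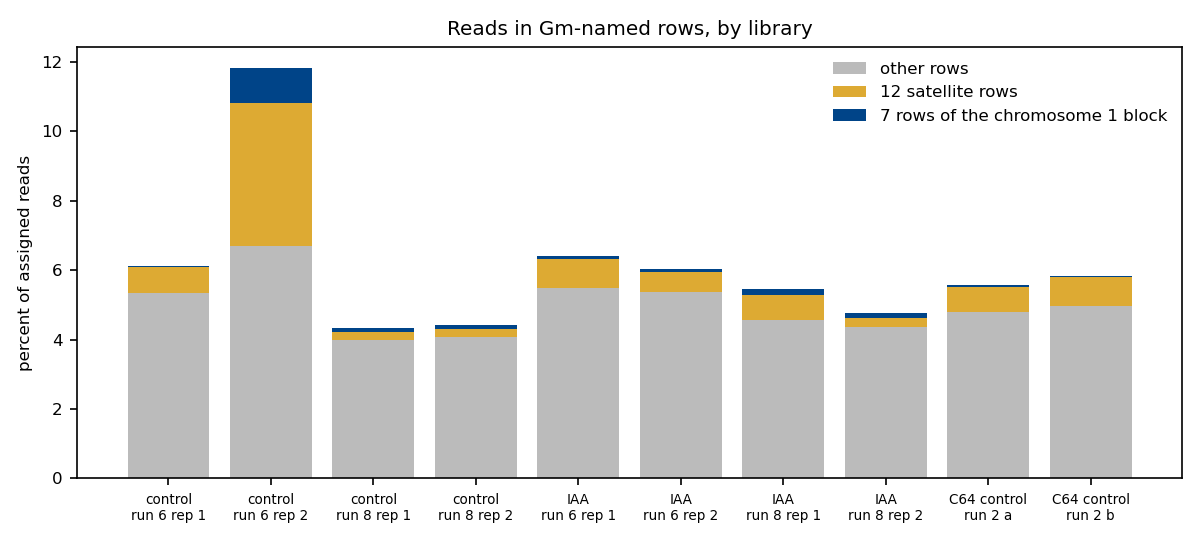
Stacked bars of the percent of assigned reads in satellite rows, chromosome 1 block rows and other Gm rows, for each library. Control run 6 replicate 2 holds 4.13, 1.02 and 6.69% in these 3 sets.

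Between B8 and C64 control cells, 0 of 1715 tested Gm rows were called by edgeR's quasi-likelihood test (0.0% of all 16316 rows), while 113 Gm rows and 935 rows in all were under 0.05 before adjustment. By likelihood ratio, 3 Gm rows were called (0.175%, against 0.0919% of all 16316 rows), and DESeq2 called 3. Using B8 run 6 alone gave 47 calls among 1996 Gm rows (2.35%, against 2.58% of all rows) and run 8 alone 61 among 1884 (3.24%, against 5.17%), among them 8 of the 12 satellite rows, with differences of -2.38 to -1.40, although all libraries together gave satellite differences of 0.30 to 1.58. Gm37556, a TEC entry, had 5.39 and 6.3 CPM in C64 and 15.5 to 19 in B8 (log2 1.55 ± 0.31, adjusted p = 0.696, edgeR). The processed pseudogene Gm21182 had 27.4 and 24.6 in C64 and 16.8, 8.74, 8.88 and 10.9 in B8 (log2 -1.21 ± 0.30, adjusted p = 0.806, edgeR). Neither pair of groups overlapped, but both rows were named for their small p between lines. The share of all rows without overlap is not given, so this is no support for a difference. Gm31415 had 1.16 and 1.38 CPM in C64 and 13.8, 593, 47.8 and 46.1 in B8, where 1 library was far above the rest. The share of reads in Gm rows was 6.68% in B8 and 5.7 ± 0.199% in C64 (n = 4 and 2, exact permutation p = 0.867, smallest possible 0.133), and without control run 6 replicate 2 the difference was -0.743 points.

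Whether the IAA effect differed between run 6 and run 8 was tested with an interaction term. Of 1444 Gm rows, 0 passed edgeR's quasi-likelihood test (0.0% of all 15266 rows), while 205 Gm rows and 1887 rows in all were under 0.05 before adjustment. By likelihood ratio, 7 of the 1444 Gm rows were called, and the share over all rows is not given. Omission of any library leaves 1 library of its group in that run, so the calls of those fits are not taken as a result. Without control run 6 replicate 1, the run 6 controls would rest on replicate 2, which stood apart in its Gm reads.

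Of the 17 ordinary symbols, 10 were tested for IAA and 0 were called. Gmeb1, a glucocorticoid modulatory element-binding protein gene, came closest (101, 78.3, 133 and 128 CPM to 75.6, 72.7, 94.7 and 85.0, log2 -0.43 ± 0.12, adjusted p = 0.0619, edgeR). Gmnn held 13.9 to 28.2 CPM in control and 11.6 to 23.7 with IAA (log2 -0.31 ± 0.21), and Gmps 33.7 to 71.0 and 40.0 to 67.6 (log2 -0.14 ± 0.16). Neither passed, and their libraries overlapped.

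Of the Gm rows, 111 are on the study's list of genes with a TATA box, 12 of these were tested and 0 were called, and 0 of the 42 called rows are on it. Of 2684 tested listed rows in the C64 table, 180 were called (6.71%, against 5.8% of all tested rows of that table). RefSeq promoters were found for 17 of the 42 called rows. TATAAA was searched on both strands of the 300-base promoters. It is in 4473 of 32851 promoters (13.6%), in 54 of 509 promoters of tested Gm rows (10.6%), in 2 of 10 of rows that fell and in 2 of 14 of rows that rose. On the gene's own strand from 45 to 16 bases before the start, it is in 2.1% of all promoters, in 4 of 509 and in 0 of the called rows. A match is a letter string and not a bound site.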

How the data were processed

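Pol II CUT&Tag libraries of B8 and C64 cells were used. The authors' deposited counts are whole-number reads per gene, made with featureCounts v2.0.0 per the file headers (GRCm38.102 annotation, whole genes joined by name, no strand, pairs over more than 1 gene left out) from Bowtie2 alignments to mm10 with duplicates kept and runs subsampled. The deposited list of TATA genes served for membership only. Counts were fitted over the whole table with edgeR 4.0.16 in R 4.3.3: library sizes were scaled by TMM, rows were kept by filterByExpr at min.count 20, and the quasi-likelihood test was used, with run as a block for IAA in B8 and a Benjamini-Hochberg threshold of 0.05. CPM values use TMM-scaled library sizes. Gene types came from GENCODE M21, and sequences from GRCm38.p6 and RefSeq. Copies were searched with minimap2 2.31-r1302 at 90% identity and mitochondrial matches with BLAST+ 2.17.0. The edgeR script was tested on simulated data with 200 changed rows.

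The members and lists were chosen with earlier results of these data known. Named rows are those called, with the largest change, level, per-kilobase level or share of 1 library, the smallest p between lines, the repeat list, and, added after values were seen, the chromosome 1 block and ordinary symbols. Alternatives were the likelihood-ratio test, DESeq2 1.42.0, other scalings and filters, blocks, single runs and leaving out each library. Columns shared by tables were compared (6, with 0 different). Within runs, same-numbered libraries had correlations of -0.0563 and -0.0128, and over both runs, where the difference between runs enters, 0.276 to 0.506, so run was the block and the number was used only in an alternative. Replicates differed by more than sampling noise (chi-square per degree of freedom 1.39 to 9.06), so the spread between libraries, beyond depth, sets the precision of each value. Some neighbouring genes are not reported here.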

Additional observations from a re-analysis of the deposited data

Results flagged for a closer look

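In each group of 4 B8 libraries, a value was singled out where its gap to the nearest other library was too large a part of the group's range by Dixon's 95% critical value, which chance gives in about 1 in 20 groups. Of 188 groups examined, 27 met this, 24 of them through control run 6 replicate 2. Since some rows were named for their share of 1 library or after their values were seen, and the repeats share sequence, this count is no test against that rate. This library had 4.13% of its reads in satellite rows and 1.02% in the chromosome 1 block. Its satellite rows stood above the other controls, with 15837 CPM in Gm10800, 9414 in Gm10801, 5713 in Gm21738, 4407 in Gm10717, 2957 in Gm11168, 2096 in Gm10719, 1907 in Gm10722, 1107 in Gm10718, 1049 in Gm10721, 602 in Gm10720, 507 in Gm17535 and 215 in Gm10715. Among the mitochondrial copies it had 3127 CPM in Gm28439, 2449 in Gm28661, 2260 in Gm28437, 1105 in Gm29216, 1059 in Gm10925, 766 in Gm10222 and 528 in Gm28438. The lncRNAs Gm33838 and Gm31415 had 1591 and 663 CPM in it, and Gm21992 was low with 359. In control run 6 replicate 1, Gm50333 (289 CPM) and Gmip (55.6 CPM) were high, and in IAA run 6 replicate 1 Gm9265 was (64.8 CPM). No explanation was tested.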

How the results depend on the processing

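For IAA in B8, the 42 calls became 73 with the likelihood-ratio test, 70 without the filter, 49 with a minimum count of 10, 3 without the run block, 2 in run 6 alone, 137 in run 8 alone and 14 to 120 when 1 library was left out (120 without control run 6 replicate 2, 14 without control run 8 replicate 2). DESeq2 called 41, and without scaling factors 56 were called, 10 lower and 46 higher against 17 and 25. With the replicate number as a block there were 28 calls, all among the 42. The filter, single runs and left-out libraries also changed how many Gm rows were tested. Of all tested rows, 5.68% were called in the main fit and 18% in run 8 alone. Without control run 6 replicate 2, 14% of all tested rows and 8.25% of tested Gm rows were called. For the other settings the share of all rows is not given, so their counts show no change particular to Gm rows. No paired analysis was possible because the C64 columns carry no replicate number, for B8 against C64. There, 0 calls became 3 with the likelihood-ratio test (0.175%, against 0.0919% of all rows) and 3 with DESeq2. B8 run 6 alone gave 47 (2.35%, against 2.58% of all rows) and run 8 alone 61 (3.24%, against 5.17%). Omission of 1 B8 control gave 0 to 2. The difference in IAA effect between runs gave 7 calls with the likelihood-ratio test and 0 to 272 when 1 library was left out. Each such omission leaves 1 library of its group in that run, so that range is not taken as a result. Its highest count came without control run 6 replicate 1, where the run 6 controls rest on replicate 2. No share of all rows is given for these calls between runs. The share of reads in Gm rows changed by -1.79 to 0.706 points (IAA) and -0.743 to 1.75 points (B8 minus C64) when 1 library was left out, turning direction without control run 6 replicate 2. The same omission turned the IAA difference upward and past the threshold in these rows, given with the range over the omission of each library: Gm10222 (-1.36 to 0.56), Gm10719 (-1.10 to 0.65), Gm10801 (-0.87 to 0.53), Gm10925 (-1.49 to 0.58), Gm28437 (-1.59 to 0.60), Gm28438 (-1.52 to 0.53), Gm28439 (-1.77 to 0.42), Gm28661 (-1.57 to 0.63), Gm29216 (-1.41 to 0.55), Gm31415 (-1.41 to 1.10) and Gm33838 (-1.24 to 0.62). Run 8 alone did so for Gm10222 (0.45), Gm10715 (1.10), Gm10717 (1.05), Gm10718 (1.08), Gm10719 (1.15), Gm10720 (0.83), Gm10721 (1.15), Gm10722 (1.11), Gm10800 (1.07), Gm10801 (0.80), Gm10925 (0.42), Gm11168 (1.13), Gm17535 (0.99), Gm21738 (0.93), Gm28437 (0.41), Gm28661 (0.47), Gm29216 (0.36), Gm31415 (0.99) and Gm33838 (1.20). In B8 run 8 alone against C64, the line difference turned to -1.40 in Gm10717, -1.91 in Gm10718, -1.64 in Gm10719, -1.59 in Gm10721, -2.33 in Gm10722, -2.38 in Gm10800, -2.03 in Gm11168 and -1.96 in Gm21738. The cause was not tested. Over the named rows, 38 alternative values turned past the threshold, 274 calls were lost, 43 were gained, 90 uncalled values moved by more than their standard error and 1559 did none of these. Depth limits what is tested, since 1012 of 27615 Gm rows passed the filter.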
